A study of Mus musculus with 9 samples.

Results

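Collagen chain genes were taken as all genes whose symbol reads Col, a number, the letter a and a number, and 44 of the 18349 genes listed matched. By the structure of the protein they fell into 11 fibrillar genes, 6 basement membrane genes, 9 genes of the FACIT class and 18 others. FACIT stands for fibril-associated collagens with interrupted triple helices. RNA of mouse irises, freed of the ciliary body and cut back at the outer rim, had been sequenced in 9 libraries, 3 in each of 3 groups, with 3 irises pooled per library. All mice were on the C57BL/6J background, carried floxed *VEGFR3* and received tamoxifen at 80 mg/kg from day 13 to day 17 after injury. In the corneal alkali injury (CAI), paper soaked with 0.5 μL of 1 M NaOH lay on the cornea of 6-week-old mice for 60 seconds, and Sham mice received PBS in its place. Irises were taken at 10 weeks of age. The groups were Sham *VEGFR3fl/fl*, injured *VEGFR3fl/fl* and injured *VEGFR3iLECko*, in which a tamoxifen-inducible Cre under the *Prox1* promoter was to delete *VEGFR3* in lymphatic endothelial cells (LECs). The labels call both control groups WT, and for replicates 2 and 3 of the group labelled *VEGFR3iLECko* the genotype label names another VEGFR number.

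Collagens are the main structural proteins of the extracellular matrix. Each molecule is a triple helix of 3 chains, in which glycine at regular steps lets the chains wind tightly around each other. Fibrillar collagens assemble into the fibers of stroma and scar, type IV collagens form the network of basement membranes under epithelium and around vessels, muscle and nerve, and FACIT collagens attach to the surface of fibrils. The iris stroma is a loose collagenous tissue with fibroblasts, melanocytes, vessels, nerves and smooth muscle, lined at the back by a pigmented epithelium on a basement membrane.

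The sequences of the genes carry this division. In the coding sequences of the GENCODE M21 annotation on mouse build GRCm38, a run of at least 10 repeats of a glycine codon (GGN) followed by 2 other codons was present in 44 of 44 collagen chain genes and in 54 of 21712 other protein-coding genes (0.249%). In fibrillar genes the longest run spanned 216 to 344 repeats. It was shortest in *Col24a1* (216) and *Col27a1* (217) and longest in *Col3a1* (344). In the 6 basement membrane genes the longest uninterrupted run was 39 to 66 repeats, although glycine codons made up 27.5% to 28.6% of their codons, a share like the 28.3% of *Col3a1*. The longest runs of FACIT genes held 32 to 113 repeats. Coding exons of exactly 54 bases, the length of 6 such repeats, numbered 21 to 33 in fibrillar genes and 1 to 3 in basement membrane genes. The 3 stretches below are shown because they display the repeat that defines the family, in 2 fibrillar genes that rose after injury and in a basement membrane gene that fell. They are a coding exon of *Col3a1* (chr1:45325360-45325413), a coding exon of *Col1a2* (chr6:4515481-4515534), and coding sequence at the end of the longest run of *Col4a5* (chrX:141673283-141673336), all on the plus strand of GRCm38. Capitals mark the glycine codons, whose regular spacing is broken once in *Col4a5*.
Col3a1: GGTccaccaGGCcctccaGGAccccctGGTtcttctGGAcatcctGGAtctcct
Col1a2: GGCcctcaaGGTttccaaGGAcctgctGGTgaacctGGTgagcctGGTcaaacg
Col4a5: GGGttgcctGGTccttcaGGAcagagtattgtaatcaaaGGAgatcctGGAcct

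**Figure D1:**
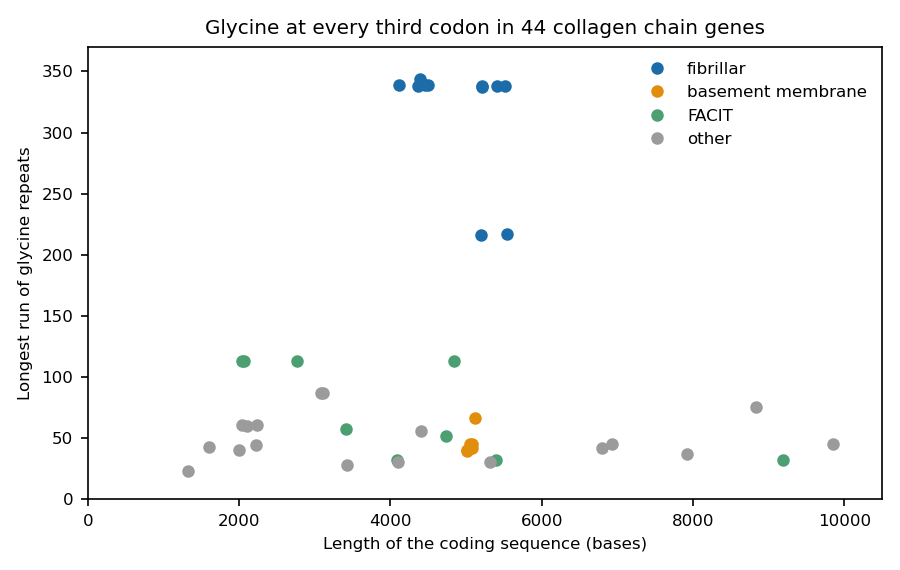
Longest uninterrupted run of glycine repeats (vertical axis, number of repeats of a glycine codon and 2 other codons) against the length of the coding sequence (horizontal axis, bases), with 1 point per collagen chain gene and colors for the 4 classes. The 11 fibrillar genes lie at 216 repeats or more, and all other genes at 113 or fewer.

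Of the 44 genes, 41 had enough counts to be tested. The other 3, *Col17a1*, *Col19a1* and *Col6a6*, had at most 0.775 CPM (counts scaled to library size after edgeR's TMM normalization) in any library. Total counts were 16617187 to 18306359 per library. *Flt4*, the gene of VEGFR3, was not lower in libraries labelled *VEGFR3iLECko* than in injured *VEGFR3fl/fl* libraries (log2 fold change 0.33 ± 0.15 SE, adjusted p = 0.2). These counts do not show the deletion, so this group goes by its label here. Injured *VEGFR3fl/fl* replicate 1 stood apart in matrix genes outside the family, with 262 CPM of *Comp* against 10.1 and 20.7 in replicates 2 and 3. The summed level of 4 Y-linked genes was 51.1 to 167 CPM in Sham libraries, 151 and 136 in injured replicates 1 and 2, 0.804 in injured replicate 3, and 0.736 to 1.11 in the libraries labelled *VEGFR3iLECko*. Y-linked levels thus differed between libraries of 1 group and between groups. *Kdm5d* and *Eif2s3y* had 0 counts in injured replicate 3 and in every library labelled *VEGFR3iLECko*. The paper used mice of both sexes. Differences by sex and by group therefore cannot be told apart between Sham libraries and those labelled *VEGFR3iLECko*, and only in part between the injured groups. The 7 pigment cell genes that mark the iris summed to 27558 to 29433 CPM in Sham libraries and to 3394 to 7118 CPM in injured libraries of both genotypes.

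Collagen chain genes together made up a larger share of all counts after injury. They held 0.555%, 0.504% and 0.523% of the counts in the Sham libraries, 2.26%, 2.47% and 3% in the injured *VEGFR3fl/fl* libraries, and 2.86%, 2.56% and 3.01% in the injured libraries labelled *VEGFR3iLECko*. Every injured library lay above every Sham library, and the 2 injured groups overlapped. The mean share was 0.527% ± 0.0256 (SD, n = 3) in the Sham group and 2.57% ± 0.382 (SD, n = 3) in the injured *VEGFR3fl/fl* group, a ratio of 4.88. In the group labelled *VEGFR3iLECko* it was 2.81% ± 0.228 (SD, n = 3). The 95% Wilson intervals, which cover counting error only, were at most 0.016 percentage points wide. *Col1a1*, *Col1a2* and *Col3a1* alone gave 0.134% ± 0.00878 of counts in the Sham group and 1.55% ± 0.317 in the injured *VEGFR3fl/fl* group (SD, n = 3), and all other members 0.393% ± 0.0315 and 1.02% ± 0.129.

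The makeup of these counts shifted toward fibrillar genes. Fibrillar genes held 31.1% to 35.7% of the collagen counts in Sham libraries and 63.2% to 71.6% in the 6 injured libraries. Basement membrane genes held 19.7% to 22.5% in Sham libraries and 9.02% to 16% in injured libraries. In the class of other collagens the share was 36.1% to 37.7% in Sham libraries and 12.5% to 17.7% in injured libraries. As shares of all counts, each of the 4 classes was higher in injured *VEGFR3fl/fl* than in Sham libraries, by a ratio of group means of 10.1 for fibrillar genes, 2.69 for basement membrane genes, 3.12 for FACIT genes and 2 for the others. Such sums get no test here, because they are carried by a few genes.

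**Figure D2:**
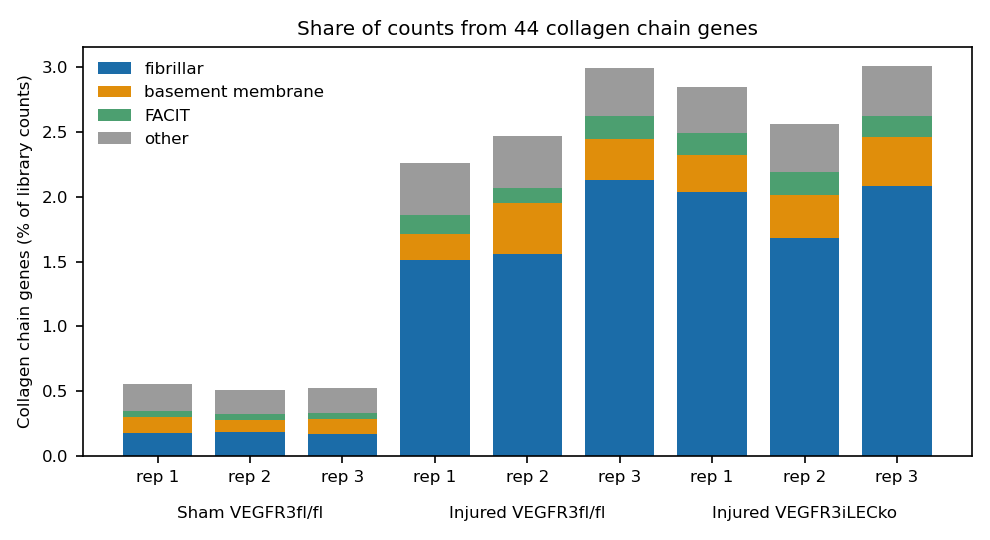
Share of all counts of a library (vertical axis, percent) that came from the 44 collagen chain genes, with 1 bar per library and stacked colors for the 4 classes. Sham libraries reach 0.504% to 0.555% and injured libraries 2.26% to 3.01%, and most of the added height is fibrillar.

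The first comparison, injured against Sham *VEGFR3fl/fl* irises, asked what the injury changed in mice with intact *VEGFR3*. Of the 41 collagen genes tested, 24 rose and 9 fell (called where the adjusted p was under 0.05 and the fold exceeded 1.5), and 8 passed in neither direction. Over all 15010 genes tested, 22.1% rose and 17.5% fell. Of the 11 fibrillar genes, 9 rose, 1 fell and 1 was not called. Of the basement membrane genes 2 rose and 4 fell, of the 8 FACIT genes tested 3 rose and 1 fell, and of the 16 others tested 10 rose and 3 fell. In 23 members the injured libraries all lay above the Sham libraries and in 10 all below, against 33.9% and 32.4% of all genes. The median log2 fold change was 1.83 over the 41 genes, 2.47 over the fibrillar genes, -1.45 over the basement membrane genes, 0.38 over the FACIT genes and 1.85 over the others, beside 0.01 over all genes. Without injured replicate 1, the median over the family was 1.27. In bulk RNA, more cells of a type and more RNA per cell cannot be told apart.

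**Figure D3:**
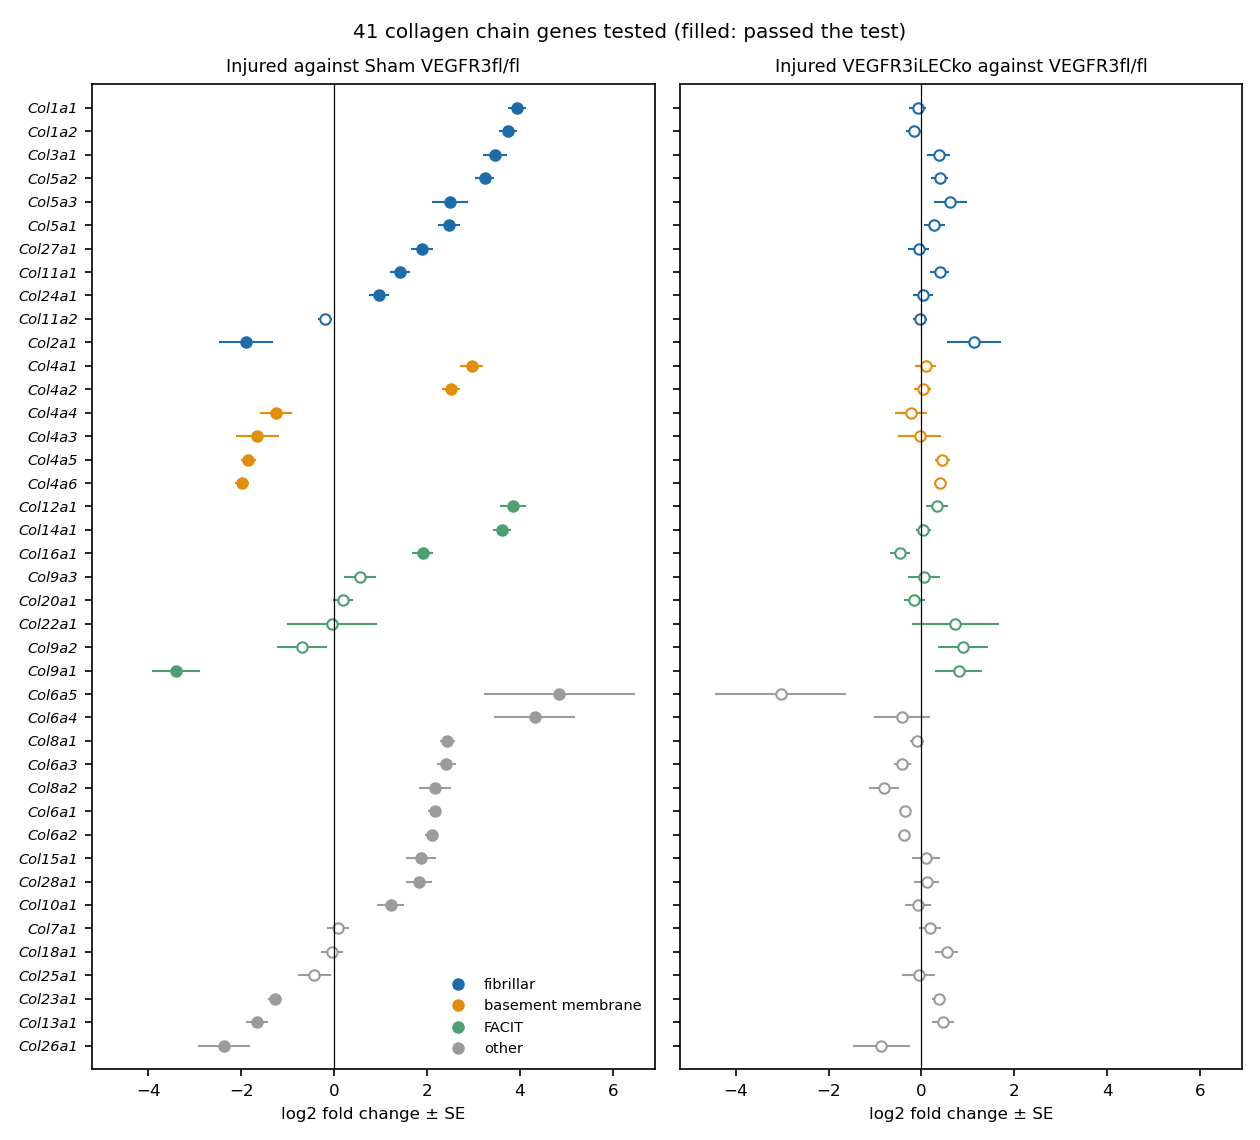
Log2 fold change with its SE (horizontal axis) of the 41 collagen chain genes tested (rows), colored by class and sorted within it by the change after injury, for injured against Sham *VEGFR3fl/fl* (left) and injured *VEGFR3iLECko* against injured *VEGFR3fl/fl* (right). Filled points passed the test, which were 33 on the left and 0 on the right.

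The largest levels after injury were those of types I and III collagen, the main fibril-forming collagens of connective tissue. *Col1a1* (NCBI Gene ID 12842, chr11:94936224-94953042), the gene of the type I α1 chain, had 310.2, 376 and 325 CPM in Sham libraries and 5425, 4444 and 5632 CPM in injured *VEGFR3fl/fl* libraries. In injured libraries labelled *VEGFR3iLECko* it had 5860, 3719 and 5104 CPM. The injured groups lay far above the Sham group, and *Col1a1* rose 15.3-fold, or by 3.94 ± 0.20 (SE) on the log2 scale (adjusted p = 5.07e-07). *Col1a2* (12843, chr6:4505618-4541543), which encodes the α2 chain that joins 2 α1 chains in a type I molecule, went from 413, 442 and 399 CPM to 6124, 4331 and 6303 CPM. It had 5941, 4328 and 4763 CPM in the libraries labelled *VEGFR3iLECko*. Its log2 fold change after injury was 3.74 ± 0.19 (adjusted p = 5.25e-07). *Col3a1* (12825, chr1:45311538-45349706), the single chain of type III collagen, which is prominent in young scar and vessel walls, had 491, 553 and 472 CPM in Sham libraries. In injured *VEGFR3fl/fl* libraries it had 3797, 5144 and 7879 CPM, a wider spread than for type I, and in libraries labelled *VEGFR3iLECko* 6966, 6429 and 8309 CPM. The log2 fold change of *Col3a1* after injury was 3.47 ± 0.26 (adjusted p = 5.32e-06).

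Levels of different genes can be compared only per length, for which an approximate TPM (counts per base of transcript, scaled to the same total in every library) was computed from the longest annotated transcript. In Sham libraries the order of mean TPM was *Col18a1* (395), *Col3a1* (262), *Col1a2* (225), *Col1a1* (164), *Col23a1* (162) and *Col4a5* (133). *Col18a1* at 337 to 433 TPM lay above *Col3a1* at 246 to 274 in every Sham library, while *Col1a1* and *Col23a1* overlapped. In injured *VEGFR3fl/fl* libraries the order was *Col1a2* (2441), *Col3a1* (2400), *Col1a1* (2040), *Col4a1* (640.1), *Col4a2* (457) and *Col8a2* (409), and the first 3 overlapped, as did the last 3. Among the 17638 genes with a length, *Col1a2*, *Col3a1* and *Col1a1* ranked 695, 585 and 1014 in the Sham group by mean TPM. After injury they ranked 31, 34 and 41 in *VEGFR3fl/fl* and 30, 21 and 32 in *VEGFR3iLECko* irises.

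The type V chains, which join type I fibrils and limit their diameter, rose as well. *Col5a2* had 100.5, 107 and 93.7 CPM in Sham libraries, 700.5, 1036 and 1114 in injured *VEGFR3fl/fl* libraries, and 1059, 1183 and 1488 in libraries labelled *VEGFR3iLECko*. Its log2 fold change after injury was 3.24 ± 0.20 (adjusted p = 1.64e-06), beside 2.47 ± 0.24 for *Col5a1* and 2.49 ± 0.39 for *Col5a3*. Per length, the *Col5a1* to *Col5a2* ratio was 0.712 to 0.802 in Sham libraries and 0.378 to 0.468 in the 6 injured libraries, so the chains did not rise in step. The ratio of *Col1a1* to *Col1a2* moved less, from 0.677 to 0.768 in Sham libraries to 0.775 to 0.966 in injured libraries. Smaller increases were seen in *Col27a1* (log2 fold change 1.90), *Col11a1* (1.42) and *Col24a1* (0.97), the first and the last being the genes with the short glycine runs. *Col11a2* was not called (-0.19 ± 0.15, adjusted p = 0.298).

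*Col2a1*, which encodes the main fibrillar collagen of cartilage and vitreous, was the fibrillar gene that went the other way. It had 36.7, 26.4 and 38.8 CPM in Sham libraries and 16.1, 6.85 and 4.36 CPM in injured *VEGFR3fl/fl* libraries, which all lay lower. In libraries labelled *VEGFR3iLECko* it had 34.4, 18.2 and 6.85 CPM and overlapped both groups. It fell by 1.90 ± 0.58 on the log2 scale after injury (adjusted p = 0.0187). The call was lost without Sham replicate 3 (-1.80, adjusted p = 0.0521), injured replicate 2 (-1.73, adjusted p = 0.0567) or injured replicate 3 (-1.57, adjusted p = 0.0567). Of 6 other cartilage genes tested, 4 rose after injury, beside 22.1% of all genes. Their list summed to 159 to 174 CPM in Sham libraries, 215 to 405 in injured *VEGFR3fl/fl* libraries and 213 to 238 in libraries labelled *VEGFR3iLECko*. *Matn3*, at 132 to 152 CPM in Sham libraries, gave most of the sum there and was not called (-0.20 ± 0.42). Among the genes that rose, *Comp* (262, 10.1 and 20.7 CPM in injured replicates 1 to 3) and *Chad* (77.4, 1.4 and 3.39 CPM) were far higher in replicate 1. *Acan*, the proteoglycan that defines cartilage, had 0.0554, 0 and 0 CPM in Sham libraries and 7.77, 2.69 and 14.4 CPM in injured *VEGFR3fl/fl* libraries. The part of cartilage cells was not tested.

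**Figure D4:**
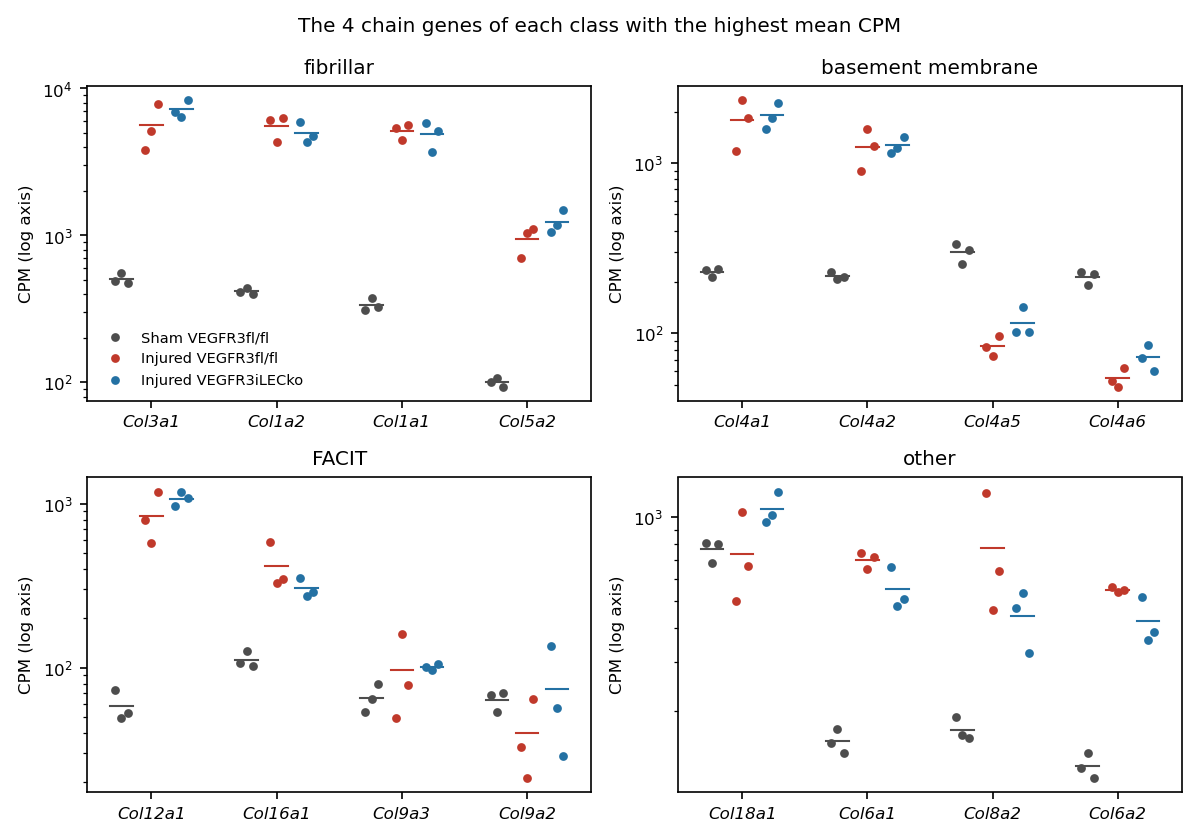
Expression in each library (vertical axis, CPM on a log axis) of the 4 genes of each class with the highest mean CPM, with 1 point per library and a bar at the group mean. Injured groups lie above the Sham group in 11 of the 16 genes and below it in *Col4a5* and *Col4a6*.

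The basement membrane genes split by chain. Type IV collagen is built from 6 chains in 3 kinds of trimer. The α1 and α2 chains form the trimer found in nearly all basement membranes, the α3, α4 and α5 chains one of specialized epithelial membranes such as the glomerulus, and the α5 and α6 chains one found among others around smooth muscle and under some epithelia. *Col4a1* had 234, 215 and 239 CPM in Sham libraries and 1170, 2329 and 1836 CPM in injured *VEGFR3fl/fl* libraries. In libraries labelled *VEGFR3iLECko* it had 1589, 1846 and 2256 CPM. It rose by 2.96 ± 0.24 on the log2 scale (adjusted p = 9.55e-06), with no overlap to the Sham group. *Col4a2* went from 229, 208 and 213 CPM to 901, 1578 and 1249 CPM, and was at 1148, 1227 and 1425 CPM in libraries labelled *VEGFR3iLECko*, with a log2 fold change after injury of 2.52 ± 0.19 (adjusted p = 5.95e-06). Injured replicate 1 was the lowest of the 3 in both genes.

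The 4 remaining type IV genes all fell. *Col4a5* had 334, 256 and 309.8 CPM in Sham libraries, 82.5, 73.1 and 96.5 CPM in injured *VEGFR3fl/fl* libraries and 101, 142 and 102 CPM in libraries labelled *VEGFR3iLECko*. After injury it fell by 1.84 ± 0.17 on the log2 scale (adjusted p = 1.71e-05). *Col4a6* had 229, 192 and 222 CPM in Sham libraries, 52.1, 48.6 and 62.3 in injured *VEGFR3fl/fl* libraries and 71.1, 85.6 and 60 in libraries labelled *VEGFR3iLECko*, and fell by 1.98 ± 0.15 (adjusted p = 4.79e-06). Both genes were lower in all 6 injured libraries than in any Sham library. *Col4a3* was at 67.4, 35 and 55.1 CPM in Sham libraries, 23.5, 7.61 and 19.2 CPM after injury and 14.5, 25.1 and 9.09 CPM in libraries labelled *VEGFR3iLECko*, and fell by 1.65 ± 0.46 (adjusted p = 0.0116). *Col4a4* was at 58, 39.7 and 56 CPM, at 30.6, 11.9 and 21.9 CPM, and at 18.3, 24.2 and 12.3 CPM in the same order, and fell by 1.25 ± 0.34 (adjusted p = 0.0102). Per length, *Col4a5* had 1.2 to 1.45 times the level of *Col4a1* in Sham libraries and 0.0317 to 0.0776 times that level in the 6 injured libraries.

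**Figure D5:**
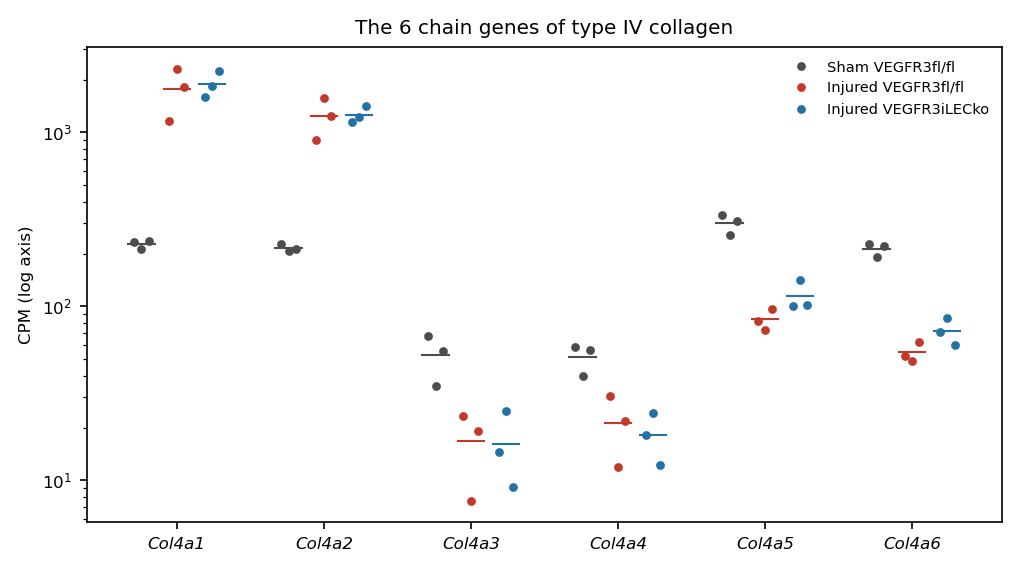
Expression of the 6 type IV collagen genes in each library (vertical axis, CPM on a log axis), with 1 point per library and a bar at the group mean. *Col4a1* and *Col4a2* lie above their Sham levels in all 6 injured libraries, and *Col4a3* to *Col4a6* below theirs.

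This split followed the genes' places in the genome, where type IV genes lie in 3 head-to-head pairs. *Col4a1* (chr8:11198423-11312889, minus strand) and *Col4a2* (chr8:11312805-11449287, plus strand) overlap at their starts by 85 bases. *Col4a4* (chr1:82448419-82587034, minus strand) and *Col4a3* (chr1:82586921-82722059, plus strand) overlap by 114 bases, and *Col4a6* (chrX:141165403-141474095, minus strand) and *Col4a5* (chrX:141475370-141689236, plus strand) start 1274 bases apart. Both genes of a pair moved the same way in each of the 3 pairs. Per length, the *Col4a1* to *Col4a2* ratio was 0.994 to 1.09 in Sham libraries, 1.27 to 1.44 in injured *VEGFR3fl/fl* libraries and 1.35 to 1.54 in libraries labelled *VEGFR3iLECko*. The *Col4a3* to *Col4a4* ratio was 1.04 to 1.37, 0.753 to 1.03 and 0.877 to 1.22 in the same order, and that of *Col4a5* to *Col4a6* 1.36 to 1.49, 1.53 to 1.61 and 1.45 to 1.73. In injured *VEGFR3fl/fl* libraries all 3 ratios lay outside their Sham ranges, that of *Col4a3* to *Col4a4* by little. Whether counting used the strand is not given in the sources used here, so reads from the short overlaps cannot be assigned.

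Sequence near the starts is shown for 2 fibrillar genes that rose and for the X-linked pair that fell. In each case it is the 120 bases before a start listed for the gene's promoter on build GRCm38.p6, written along the gene's own strand. For *Col1a2* and *Col3a1* that start is the gene start given above. In the X-linked pair it lies inside the gene as placed above, so part of each stretch is within the gene. The marked bases of *Col4a5* lie within it, and those of *Col4a6* at its start. They are *Col1a2* (chr6:4505498-4505617, plus strand), *Col3a1* (chr1:45311418-45311537, plus strand), *Col4a5* (chrX:141475299-141475418, plus strand) and *Col4a6* (chrX:141474077-141474196, minus strand). Capitals mark TATAAA in *Col3a1*, CCAAT in *Col1a2* and, read on either strand, GGGCGG in the X-linked pair.
Col1a2: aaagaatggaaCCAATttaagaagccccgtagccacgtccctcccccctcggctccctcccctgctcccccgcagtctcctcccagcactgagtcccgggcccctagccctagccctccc
Col3a1: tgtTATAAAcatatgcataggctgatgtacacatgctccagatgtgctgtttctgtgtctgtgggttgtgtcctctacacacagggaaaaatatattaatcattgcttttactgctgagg
Col4a5: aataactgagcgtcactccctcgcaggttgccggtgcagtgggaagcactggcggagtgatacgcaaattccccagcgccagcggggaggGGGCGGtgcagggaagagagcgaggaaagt
Col4a6: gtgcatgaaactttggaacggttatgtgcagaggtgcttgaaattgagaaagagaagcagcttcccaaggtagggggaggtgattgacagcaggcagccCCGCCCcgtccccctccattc
Windows from 250 bases before to 50 after the start were listed for 35 of the 44 genes. TATAAA was found in 5 of them (14.3%, against 15.7% of the windows of 27025 genes), CCAAT in 13 (37.1% against 41.1%) and GGGCGG in 22 (62.9% against 38.2%). A match describes the letters only.

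Markers of several cell types moved along with these genes. Their counts stand beside 22.1% of all genes that rose after injury and 17.5% that fell. All 7 pigment cell genes fell after injury. Of 8 smooth muscle and pericyte genes 3 fell and 3 rose, and the list went from 7028 to 8910 CPM in Sham libraries to 2093 to 4073 CPM in injured *VEGFR3fl/fl* libraries, with *Myh11*, the myosin of smooth muscle, at 2665 to 3384 and 224 to 361 CPM. Of 7 Schwann cell genes 5 fell and 1 rose. Of 8 blood endothelial genes 5 rose and 1 fell, and their sum went from 471 to 512 CPM in Sham libraries to 1185 to 1247 CPM in injured *VEGFR3fl/fl* libraries. Of 8 macrophage genes 7 rose, and their sum went from 306 to 318 CPM to 2680 to 2955 CPM. Of 5 striated muscle genes tested 3 fell and 0 rose, and that list went from 64.9 to 78 CPM to 2.41 to 4.68 CPM. Of 8 fibroblast genes 5 rose and 1 fell, and their sum was 3982 to 4271 CPM in Sham libraries and 8105, 2600 and 3569 CPM in injured replicates 1 to 3. The fibroblast list shares *Dcn*, *Lum* and *Dpt* with the fibril-associated proteins counted further on. Of 5 bone genes tested 3 rose and 0 fell. Their list summed to 147 to 162 CPM in Sham libraries and to 37.5, 74.5 and 287 CPM in injured replicates 1 to 3. *Ibsp*, a bone matrix protein, was at 0 in Sham libraries and at 0.182, 0.761 and 83.5 CPM in injured replicates 1 to 3. *Alpl*, which was not called, went from 138 to 154 CPM in Sham libraries to 11.4, 36.5 and 146 CPM in the same replicates. Of 4 lens genes tested 2 rose and 1 fell. The crystallin gene *Cryaa* had 0.0554, 0.113 and 0 CPM in Sham libraries and 2.91, 35.5 and 31.1 CPM in injured replicates 1 to 3. *Crybb2* was at 0 in Sham libraries and at 2.31, 18.6 and 0 CPM in these replicates. *Bfsp2*, at 112 to 147 CPM in Sham libraries, fell (-0.91 ± 0.29). Of 4 corneal epithelium genes tested 3 fell and 0 rose. The part of these cell types in the changes of collagen genes was not tested.

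Among FACIT genes, the types XII and XIV collagens, which sit on type I fibrils, had the largest increases. *Col12a1* had 73.3, 49.1 and 53 CPM in Sham libraries, 794, 575 and 1170 in injured *VEGFR3fl/fl* libraries and 966, 1181 and 1077 in libraries labelled *VEGFR3iLECko*. Its log2 fold change after injury was 3.85 ± 0.28 (adjusted p = 3.92e-06). *Col14a1* rose from 6.76, 5.54 and 5.46 CPM to 85.9, 52.7 and 78 CPM, with 68.2, 80.4 and 74.9 CPM in libraries labelled *VEGFR3iLECko* (3.61 ± 0.19, adjusted p = 7.41e-07). *Col16a1* rose from 106, 126 and 103 CPM to 582, 326 and 349 CPM, with 353, 273 and 290.0 CPM in libraries labelled *VEGFR3iLECko* (1.91 ± 0.22, adjusted p = 7.21e-05). In all 3 genes the injured libraries lay above the Sham libraries.

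The 3 chains of type IX collagen, which is built as a trimer of α1, α2 and α3 and is known from cartilage and vitreous, did not move together. *Col9a1* had 100.1, 74.7 and 106 CPM in Sham libraries, 16.6, 5.09 and 5.05 CPM in injured *VEGFR3fl/fl* libraries and 22.3, 16.6 and 7.54 CPM in libraries labelled *VEGFR3iLECko*. It fell by 3.40 ± 0.51 on the log2 scale (adjusted p = 0.000382), the largest fall in the family. *Col9a2*, at 68, 53.4 and 70.2 CPM, then 33, 21.2 and 64.8 CPM, then 136, 56.6 and 29 CPM in the same order, was not called (-0.69 ± 0.54, adjusted p = 0.296). *Col9a3*, at 53.3, 64.2 and 79.1 CPM, then 49.5, 161 and 78.2 CPM, then 101, 96.2 and 105 CPM, was not called either (0.56 ± 0.35, adjusted p = 0.203). Its value was 0.87 (adjusted p = 0.0193) without injured replicate 1 and -0.03 without replicate 2. Per length, *Col9a1* stood to *Col9a3* as 0.925 to 1.49 in Sham libraries and as 0.0251 to 0.267 in the 6 injured libraries, without overlap. *Col20a1* (0.20) and *Col22a1* (-0.05) were not called.

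Of the other classes, type VI collagen, a beaded filament of the matrix around cells, rose in its 3 main chains. *Col6a1* went from 154, 172 and 142 CPM to 739.8, 649 and 715 CPM and was at 658, 479.5 and 508 CPM in libraries labelled *VEGFR3iLECko* (2.17 ± 0.14, adjusted p = 1.86e-06). *Col6a2* went from 125, 142 and 115 CPM to 559, 538 and 545 CPM and was at 514, 362 and 387 CPM in libraries labelled *VEGFR3iLECko* (2.10 ± 0.14, adjusted p = 2.65e-06). These genes varied little among the injured *VEGFR3fl/fl* libraries. The ratio of *Col6a1* to *Col6a2* per length was 1.45 to 1.48 in Sham and 1.45 to 1.59 in injured libraries, so both rose alike. *Col6a3* had a log2 fold change of 2.42 ± 0.20.

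The remaining type VI genes rest on few counts. *Col6a4* had 2, 0 and 1 counts in Sham libraries, 20, 34 and 10 in injured *VEGFR3fl/fl* libraries and 7, 15 and 27 in libraries labelled *VEGFR3iLECko*. Per total count, the ratio of the summed counts after injury to those of the Sham group was 19.9 (exact 95% counting interval 6.5 to 98.9), and for the group labelled *VEGFR3iLECko* it was 15.5 (5.02 to 78). Both changes were called (adjusted p = 0.00213 and 0.00478) in the fit of all 9 libraries. In fits of only the 6 libraries compared, which leave out the other injured group, *Col6a4* had too few counts to be tested. *Col6a5* had 5, 3 and 6 counts in Sham libraries, 374, 3 and 8 in injured *VEGFR3fl/fl* libraries and 23, 7 and 19 in libraries labelled *VEGFR3iLECko*. Its call after injury (adjusted p = 0.0278) rested on injured replicate 1 and was lost without it, with a log2 fold change of 0.28 (adjusted p = 0.769).

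*Col8a1* and *Col8a2* encode type VIII collagen, which forms hexagonal lattices in the membrane under the corneal endothelium and in vessel walls. *Col8a2* had 190.3, 164 and 159.7 CPM in Sham libraries, 1224, 462 and 639 in injured *VEGFR3fl/fl* libraries and 469, 531 and 325 in libraries labelled *VEGFR3iLECko*. Its log2 fold change after injury was 2.18 ± 0.34 (adjusted p = 0.000445), with replicate 1 highest, and it was 1.68 without that replicate. *Col8a1* rose by 2.44 ± 0.16. Among 4 marker genes of corneal stroma and endothelium tested, 3 fell and 0 rose, beside 17.5% and 22.1% of all genes. *Kera*, also on that list, had at most 3 counts in any library and was not tested. *Ptgds* alone had 13097 to 15156 CPM in Sham libraries. The list's sum, which was 13499 to 15441 CPM in Sham and 3124 to 4435 CPM in injured *VEGFR3fl/fl* libraries, thus mostly followed that gene. *Aldh3a1*, the remaining marker tested, was not called (2.57 ± 1.09, adjusted p = 0.0686). It had 8.75, 6.61 and 6.25 CPM in Sham libraries and 117, 1.93 and 10.2 CPM in injured replicates 1 to 3. The first of these replicates was the library with the highest *Col8a2*. The part of corneal cells was not tested.

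*Col18a1* and *Col15a1* encode the multiplexins of basement membranes, and a fragment of the former is endostatin, an inhibitor of vessel growth. *Col18a1* had 809, 683 and 799 CPM in Sham libraries, 498, 1044 and 665 CPM in injured *VEGFR3fl/fl* libraries and 958, 1018 and 1231 CPM in libraries labelled *VEGFR3iLECko*. The groups overlapped after injury, and *Col18a1* was not called (-0.05 ± 0.24, adjusted p = 0.855). *Col15a1* rose by 1.88 ± 0.32 (adjusted p = 0.00086). The only other members of this class to rise were *Col28a1* (1.83) and *Col10a1* (1.22), both at 21.3 CPM or less in every library.

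Transmembrane collagens, which span the cell membrane with their triple helix outside, did not rise. *Col23a1* had 329, 278 and 344 CPM in Sham libraries, 134, 109.8 and 153 CPM after injury and 178, 189 and 145 CPM in libraries labelled *VEGFR3iLECko*, and fell by 1.26 ± 0.15 on the log2 scale (adjusted p = 7.88e-05). *Col13a1* fell by 1.65 ± 0.24 from 4.97 to 5.91 CPM to 1.46 to 2.11 CPM. *Col25a1* was not called (-0.42 ± 0.35). *Col26a1*, a member with an EMI domain, had 7.42, 8.64 and 5.86 CPM in Sham libraries, 2.18, 1.76 and 0.287 CPM after injury and 0.759, 0.453 and 1.09 CPM in libraries labelled *VEGFR3iLECko*. It fell by 2.37 ± 0.56 (adjusted p = 0.00504). *Col7a1*, the anchoring fibril collagen of surface epithelia, was not called (0.09 ± 0.24).

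Members differed in how evenly the replicates of a group behaved. The highest library of a group exceeded the lowest by a median factor of 1.24 in the Sham group, 1.93 in the injured *VEGFR3fl/fl* group and 1.44 in the group labelled *VEGFR3iLECko*. A factor above 2 was reached by 2 of 41 members in the Sham group, 17 in the injured *VEGFR3fl/fl* group and 9 in the group labelled *VEGFR3iLECko*, counting *Col6a4* in the Sham group and *Col22a1* in the group labelled *VEGFR3iLECko*, each with a library at 0. Of the injured *VEGFR3fl/fl* libraries, replicate 1 was the highest in 16 members and the lowest in 14, so that it did not stand on 1 side.

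The second comparison, between the injured groups, asked what changed with the labelled deletion of *VEGFR3* in LECs. No collagen gene was called in either direction by edgeR, and 0 were called by DESeq2. Over all genes, 0.573% were called higher and 0.466% lower. At an unadjusted p under 0.05 there were 7 of 41 members by edgeR, against 24.5% of all genes. By DESeq2 there were 10, for which the share of all genes was not counted. In 2 members the groups did not overlap, against 26.7% of all genes. The median log2 fold change over the family was 0.04, with 23 values above and 18 below 0, beside -0.01 over all genes.

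The type I and III genes did not pass the test between the injured groups, whose libraries overlapped in each of them. Equality of their levels was not tested. *Col1a1* differed by -0.08 ± 0.18 on the log2 scale (adjusted p = 0.809), *Col1a2* by -0.16 ± 0.17 (adjusted p = 0.589) and *Col3a1* by 0.37 ± 0.24 (adjusted p = 0.352). The direction of *Col1a1* turned without replicate 2 labelled *VEGFR3iLECko* (0.09), and that of *Col3a1* once Y-linked expression entered the fit as a covariate (-0.10).

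The 7 members at an unadjusted p under 0.05 are given here in both directions. *Col18a1* was higher in libraries labelled *VEGFR3iLECko* by 0.54 ± 0.24 on the log2 scale (unadjusted p = 0.0483, adjusted p = 0.201), and it was called without injured *VEGFR3fl/fl* replicate 2, its highest library in that group (0.88, adjusted p = 0.0433). *Col4a5* had a difference of 0.45 ± 0.16 (adjusted p = 0.147), with all libraries labelled *VEGFR3iLECko* above all injured *VEGFR3fl/fl* libraries, and its neighbor *Col4a6* one of 0.41 ± 0.14 (adjusted p = 0.136). *Col23a1* differed by 0.37 ± 0.15 (adjusted p = 0.168). These 3 genes had fallen after injury, and their labelled *VEGFR3iLECko* values remained below those of every Sham library. *Col6a2*, the other member without overlap, was lower by a log2 difference of -0.38 ± 0.13 (adjusted p = 0.144), *Col6a1* by -0.35 ± 0.13 (adjusted p = 0.153) and *Col8a2* by -0.81 ± 0.32 (adjusted p = 0.171). For *Col8a2* the difference was between -1.08 and -0.31 when single libraries were left out. With Y-linked expression as a covariate, 1 member had an unadjusted p under 0.05, and without replicate 2 labelled *VEGFR3iLECko* there were 2. The share of all genes was not counted in either fit. Of 8 macrophage genes 3 were called lower and 1 higher in libraries labelled *VEGFR3iLECko*, and their sum was 2680 to 2955 CPM in injured *VEGFR3fl/fl* and 1761 to 1938 CPM in libraries labelled *VEGFR3iLECko*, without overlap. Pigment cell genes, which had fallen after injury, had 0 calls and summed to 3394 to 5826 CPM in injured *VEGFR3fl/fl* and 5085 to 7118 CPM in libraries labelled *VEGFR3iLECko*, with overlap. The part of these cell types was not tested.

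The third comparison, injured *VEGFR3iLECko* against Sham irises as labelled, shares its Sham libraries with the first, so that the results are not independent. Here 23 of 41 members rose and 8 fell, against 19.7% and 15.0% of all genes, and the median log2 fold change was 1.45, beside -0.01 over all genes. Calls of the first comparison that were not made here were those of *Col6a5* (1.82 ± 1.72, adjusted p = 0.397) and *Col2a1* (-0.78 ± 0.56, adjusted p = 0.264). Their differences between the injured groups did not pass the test (adjusted p = 0.221 and 0.258). By class, 9 of 11 fibrillar genes rose, and 2 basement membrane genes rose and 4 fell.

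The largest rises were those of *Col12a1* (4.20 ± 0.28), *Col6a4*, *Col1a1* (3.86 ± 0.20), *Col3a1* (3.84 ± 0.26) and *Col14a1* (3.65 ± 0.19). The largest falls were those of *Col26a1* (-3.24 ± 0.59), *Col9a1* (-2.60 ± 0.49), *Col4a3* (-1.69 ± 0.46), *Col4a6* (-1.57 ± 0.14) and *Col4a4* (-1.49 ± 0.34). Y-linked levels were 51.1 to 167 CPM in Sham libraries and 0.736 to 1.11 CPM in those labelled *VEGFR3iLECko*. A Y-linked covariate thus nearly repeats the group here, and a fit with it does not separate sex from group. With the Y-linked covariate 3 falls passed the test, those of *Col4a5*, *Col4a6* and *Col23a1*, and 21 rises, without those of *Col8a2* and *Col24a1*. The values of *Col4a3* (-1.99, adjusted p = 0.0793) and *Col4a4* (-1.52, adjusted p = 0.0783) were then no smaller than before, while those of *Col9a1* (-1.59, adjusted p = 0.158) and *Col26a1* (-1.10, adjusted p = 0.301) were smaller. In the first comparison, 24 rises and 9 falls were called with that covariate.

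Genes that make, process and bind collagen were counted by list. Over all genes tested, 22.1% rose and 17.5% fell after injury, and the median log2 fold change was 0.01. Of 20 genes of collagen folding and modification, 13 rose and 1 fell after injury, with a median log2 fold change of 0.92. *P4ha3*, a subunit of prolyl 4-hydroxylase, rose from 0.113 to 0.282 CPM to 15.4 to 35.9 CPM (6.78 ± 0.42, adjusted p = 1.63e-06). *Plod2*, a lysyl hydroxylase (1.67 ± 0.22), and *Creb3l1*, a transcription factor of the secretory pathway (1.47 ± 0.22), rose as well. *Colgalt2*, which attaches galactose to hydroxylysine, fell from 45.9 to 66.4 CPM to 14.3 to 17.9 CPM (-1.89 ± 0.16).

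Of 10 genes tested for collagen export and propeptide processing, 7 rose and 0 fell (median 1.10). The largest changes were those of the procollagen N-proteinases *Adamts14* (3.00 ± 0.52) and *Adamts2* (2.53 ± 0.16), and of the C-proteinases *Bmp1* (2.22 ± 0.22) and *Tll1* (1.46 ± 0.24). Of 6 crosslinking genes 4 rose (median 0.72). *Lox*, lysyl oxidase, went from 12.7 to 17.6 CPM to 271 to 601 CPM in injured *VEGFR3fl/fl* libraries and to 616 to 754 CPM in libraries labelled *VEGFR3iLECko* (4.85 ± 0.30 after injury, adjusted p = 1.77e-06). Smaller rises were those of *Loxl1* (2.14), *Tgm2* (0.77) and *Loxl3* (0.59).

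Of 11 fibril-associated proteins tested, 8 rose (median 2.40). *Fn1*, fibronectin, rose from 94.1 to 138 CPM to 2527 to 4515 CPM (4.98 ± 0.28), *Postn*, periostin, by 3.00 ± 0.21 and *Thbs2*, thrombospondin 2, by 2.96 ± 0.33. *Dpt*, dermatopontin, had 0 to 0.166 CPM in Sham libraries and 7.71, 1.11 and 0.287 CPM after injury, so that replicate 1 carried most of it. Of 10 collagen receptors tested, 7 rose and 1 fell (median 0.98), and the integrin gene *Itga11*, whose product binds fibrillar collagen, had the largest change (6.19 ± 0.41). It was followed by *Lair1*, an inhibitory receptor of leukocytes (3.24 ± 0.18), *Itga2* (2.48) and *Itga1* (1.80).

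Of 11 collagen-degrading enzymes, 10 rose and 1 fell (median 2.25). *Mmp13*, a collagenase, had 0.665 to 0.904 CPM in Sham libraries, 527, 111 and 455 CPM after injury and 827, 231 and 1189 CPM in libraries labelled *VEGFR3iLECko* (8.92 ± 0.96, adjusted p = 4.85e-05). *Mmp9*, a gelatinase, had a log2 fold change of 8.24 ± 1.24, and *Mmp3*, stromelysin, one of 7.40 ± 1.87 with 214 CPM in injured replicate 1 and 6.85 and 10.6 in replicates 2 and 3. *Mmp8*, the collagenase of neutrophils, went from at most 3 counts per Sham library to 13, 14.2 and 14.9 CPM. Between the injured groups, 0 genes of these 6 lists were called by edgeR in either direction, and 18 of the 68 tested had an unadjusted p under 0.05, a share near the 24.5% of all genes.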

How the data were processed

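RNA-Seq of 9 iris libraries was analysed from the estimated counts per gene that the authors deposited, which were not normalized. Per the labels, the submitters' notes name HISAT2 2.0.4, Bowtie2 2.2.5, DESeq2 1.4.5 and build mm10, which has the coordinates of GRCm38. The counting program and its annotation are not given in the sources used here. Of the values of a library, 9.83% to 10.3% were not whole, and counts were rounded. edgeR 4.0.16 in R 4.3.3 kept 15010 genes by filterByExpr, scaled libraries by TMM (factors 0.90 to 1.09) and fitted all 9 libraries with group as the only term. The quasi-likelihood test was two-sided and Benjamini-Hochberg adjusted over all genes tested. SEs came from the F statistic. The authors' filter on TPM was not used here. The combined table of the series held the same counts and was not used.

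The 44 genes, their classes and the gene lists were chosen with earlier results of these data known. Values in every library are given for the 4 genes of each class with the highest mean CPM, the 5 largest rises and falls among called members of each comparison, and members with an unadjusted p under 0.05 between injured groups where under 5 were called. Of the other lists, up to 4 called genes with the largest changes are named. Approximate TPM used the longest GENCODE M21 transcript, available for 96.1% of genes. Promoter sequence is from RefSeq. The labels do not say that libraries are separate cohorts, so p-values measure the spread between pooled libraries. Alternatives covered normalization, filter, DESeq2 1.42.0, the libraries fitted, the fold threshold, a replicate block, a Y-linked covariate and leaving out each library. The procedure was tested on simulated data.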

Additional observations from a re-analysis of the deposited data

How the results depend on the processing

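After injury 22 to 24 collagen genes were upregulated and 8 to 10 downregulated under the alternatives, and at least 23 of the 24 and 8 of the 9 were called again when any single library was left out. Gained calls were those of *Col19a1*, not tested otherwise, down in 8 alternatives, and *Col9a3*, up without injured replicate 1. The calls lost were those of *Col6a5*, in 6 alternatives and given no adjusted p by DESeq2, *Col6a4*, in the fit of only the 6 libraries compared, and *Col2a1*, without 3 of the libraries. In the fit of only the 6 libraries compared, *Col6a4* and *Col6a5* had too few counts to be tested. The median log2 fold change of the family was 1.32 with no filter on low counts, 1.43 with only the 6 libraries compared, and 1.27 to 1.82 when single libraries were left out. *Col18a1* changed sign after injury without injured replicate 1 (0.16) or 3 (0.01), and *Col9a3* ranged from -0.03 to 0.87 over left-out libraries. Between the injured groups 0 to 1 genes rose when single libraries were left out and 0 in all other alternatives. *Col1a1* ranged from -0.23 to 0.09 over left-out libraries, above 0 without iLECko replicate 2. *Col3a1* turned below 0 with the Y-linked covariate (-0.10). With that covariate 3 genes were called lower between labelled *VEGFR3iLECko* and Sham irises, while *Col4a3* (-1.99) and *Col4a4* (-1.52) were no smaller but no longer called. Y-linked levels split these groups without overlap, so that fit does not separate sex from group. The collagen share of counts was 0.393%, 1.02% and 1.12% in Sham, injured *VEGFR3fl/fl* and labelled *VEGFR3iLECko* irises without *Col1a1*, *Col1a2* and *Col3a1*, and 0.254%, 1.11% and 1.27% of approximate TPM. Left-out libraries gave 0.513% to 0.539%, 2.36% to 2.73% and 2.71% to 2.93%. Replicate numbers did not pair the libraries (correlations of same-numbered deviations -0.39 to 0.13). With a replicate block 23 genes rose and 9 fell after injury, 0 were called between the injured groups, and 23 rose and 8 fell in the third comparison. The cause of these changes was not tested. Depth limits the genes with few counts, *Col6a4*, *Col6a5* and *Col22a1*.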
